A study of Mus musculus with 8 samples.

Results

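The nuclear-encoded subunits of mitochondrial complex I were measured as messenger RNA in sorted microglia, a macrophage population that lives in the brain and spinal cord. Members were the protein-coding genes whose symbol in the mm10 GENCODE annotation is Nduf, then a, b, c, s or v, then digits, so that assembly factors (Ndufaf) are left out. Of these, 35 genes are described, out of the 54532 of the count table, and the rule used no measured value. The libraries came from spinal cord microglia of 8 female mice, 1 library per mouse: 4 wild type (WT 503, 504, 506 and 527) and 4 of the knock-in line named Cd11b-P2X4mCherryIN in the labels (KI 513, 526, 528 and 549). The cells had been sorted as living, CD11b positive, CD45 low and Ly6C negative. The name of the line joins P2X4, an ATP-gated channel of the plasma membrane, to the red fluorescent protein mCherry and to CD11b, a surface protein of myeloid cells. The labels name no age, treatment, disease or batch, and the only comparison of the design is KI against WT.

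Complex I, NADH dehydrogenase, is the entry point of the respiratory chain. It takes electrons from NADH, passes them along a chain of iron-sulfur clusters to ubiquinone, and pumps protons across the inner mitochondrial membrane. Its matrix arm holds the redox centres and its membrane arm the proton channels. The core subunits do the chemistry: those of the matrix arm are encoded in the nucleus, those of the membrane arm in mitochondrial DNA. The accessory subunits surround the core and are needed for its assembly and stability. In macrophages, a shift between respiration through this chain and glycolysis accompanies changes of activation state.

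Many respiratory chain genes are known to be controlled by the transcription factors NRF1, the ETS family member GABP and YY1, so the promoters of the members were searched for short forms of their motifs. RefSeq promoters of build GRCm38.p6 (the bases of mm10), running from 250 bases before to 50 after a transcription start, were found for 32 of the 35 members (34 promoters, since Ndufa5 and Ndufa7 have more than 1). Ndufs1, Ndufa2 and Ndufb9 had no entry. A form of the NRF1 motif (GCGCA, then any base, then GCGC) was found on either strand in 8 of the 34 promoters (23.5%), which belong to 7 genes since both promoters of Ndufa5 cover the same site, against 4.6% of all 32851 promoters in the table and 9.49% of the 13527 that belong to tested genes. The letters AAGATGGC, a form of the YY1 motif, were in 7 of the 34 (20.6%), against 2.75% of all and 4.3% of those of tested genes. All 7 lay after the start, and the letters include ATG, those of the start codon. The ETS core CCGGAAG was in 4 of the 34 (11.8%), against 8.86% and 17%. These are matches of letters, not measured binding. The sites are shown because they represent each motif among members that are described further on. Each is 30 bases, 5′ to 3′ on the gene's strand, with the match in capitals.
Ndufa5, NRF1 form, chr6:24527698-24527727, minus strand: ttgtgtgagctGCGCAGGCGCaaatctacc
Ndufa8, NRF1 form on the other strand, chr2:36049350-36049379, minus strand: cctagagcagtGCGCTTGCGCgtcgctgga
Ndufs5, NRF1 form, chr4:123718266-123718295, minus strand: ggctgcttgctGCGCAGGCGCagacccgct
Ndufs6, NRF1 form on the other strand, chr13:73328480-73328509, minus strand: ccgactgctgtGCGCCTGCGCcggcacttg
Ndufs3, ETS core, chr2:90904730-90904759, minus strand: cccgcgtccgcCCGGAAGaagagtcactgc
Ndufb7, ETS core, chr8:83566727-83566756, plus strand: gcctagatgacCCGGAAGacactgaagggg
Ndufb8, YY1 form, chr19:44555393-44555422, minus strand: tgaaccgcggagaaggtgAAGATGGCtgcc
Ndufc1, YY1 form, chr3:51408915-51408944, minus strand: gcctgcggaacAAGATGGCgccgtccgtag
Ndufs7, YY1 form, chr10:80249462-80249491, plus strand: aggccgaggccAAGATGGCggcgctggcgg
For the NRF1 form and the ETS core, only sites before the start were chosen to be shown. Of the NRF1 sites shown, that of Ndufs6 lay nearest to the start and that of Ndufs5 farthest. In Ndufa6, which is not shown, the NRF1 form began 23 bases after the start. In Ndufb4 it occurred 3 times.

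All 35 members were detected in every library, at levels that spread widely. Between genes, levels are compared as FPKM, the authors' deposited value per exon length and library size. The exon length behind it was shortened by 186 to 189 bases, which raises short genes most, such as Ndufa1 (419 bases) and Ndufa2 (572 bases). The order and the range given here hold for this measure, and over full exon length they would differ. The median over the members was 39.9 FPKM, 26 of the 35 lay between 10 and 100 FPKM, and the highest stood 104 times above the lowest. Most abundant per length was Ndufa8, an accessory subunit on the intermembrane space side, at 178 ± 4.44 FPKM in WT and 199 ± 28.2 FPKM in KI (SD, n = 4 each). Ndufa2, an accessory subunit of the matrix arm, stood at 169 ± 16.5 FPKM in WT and 184 ± 7.90 FPKM in KI, and Ndufc2 of the membrane arm at 168 ± 7.13 FPKM in WT and 183 ± 10.1 FPKM in KI. The order of Ndufa8 and Ndufa2 held in 6 of the 8 libraries and that of Ndufa2 and Ndufc2 in 4, so these 3 were not separated. Ndufc2 lay above the next gene, Ndufa1, in 8 of 8.

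The lowest 3 were membrane arm genes: Ndufb2 (1.80 ± 0.204 FPKM in WT and 1.81 ± 0.477 FPKM in KI), Ndufb4 (5.47 ± 0.14 FPKM in WT and 5.63 ± 0.57 FPKM in KI) and Ndufb5 (9.34 ± 0.602 FPKM in WT and 9.96 ± 1.15 FPKM in KI). These 3 kept their order among themselves in all 8 libraries, but Ndufb5 lay below the next gene, Ndufs1, in only 6 of 8. The exon models of Ndufb2 (5628 bases) and Ndufb5 (4995 bases) were long beside the members' median of 1495, so the deposited FPKM divides their reads over many bases. Along the whole order, only 9 of the 34 pairs of neighbours kept the same order in all 8 libraries. Of the core subunits, Ndufs8 was highest (146 ± 10.2 FPKM in WT and 161 ± 9.14 FPKM in KI) and Ndufs1 lowest (10.8 ± 0.38 FPKM in WT and 10.1 ± 1.69 FPKM in KI), again with the longest exon model of the members (8086 bases).

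**Figure D1:**
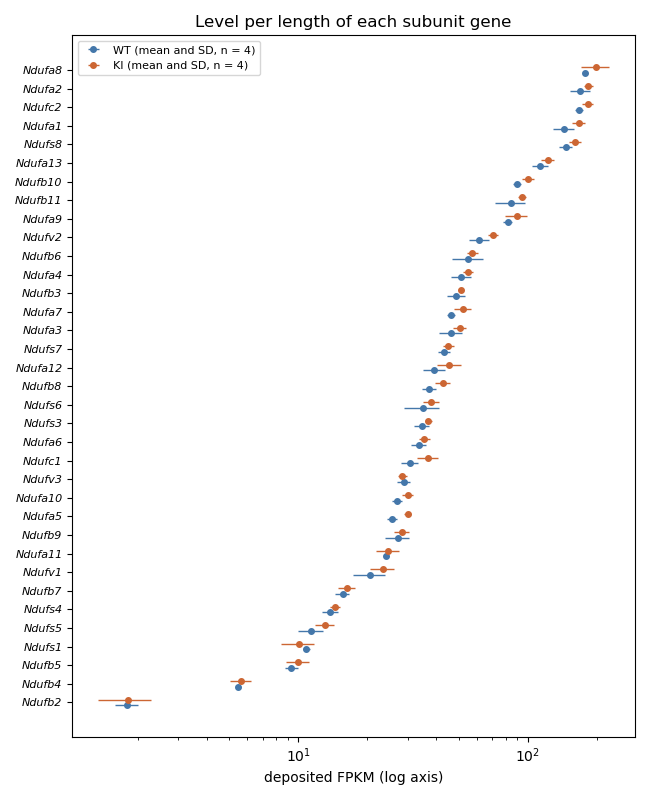
Deposited FPKM of each of the 35 subunit genes on a log axis, ordered by the mean over 8 libraries; points are group means and bars the SD of 4 libraries, WT in blue and KI in orange. The genes run from Ndufb2, at 1.80 FPKM in WT, to Ndufa8 at 178 FPKM in WT and 199 in KI, and the groups lie close together for most genes.

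The members' mean level differed between libraries of the same genotype. From here on, levels are CPM (a gene's reads over the library's total, scaled by TMM), and each gene is set against its own mean over the 8 libraries on the log2 scale. The members' mean was lowest in WT 506 (−0.16), followed by WT 527 (−0.07), WT 504 (−0.06) and KI 513 (0.00). It was 0.04 in KI 549, 0.05 in WT 503 and 0.10 in both KI 528 and KI 526. So 3 WT libraries stood lowest and KI 526 and KI 528 highest, while WT 503 lay above KI 513 and next to KI 549. Of the 35 genes, 21 had their lowest CPM of all libraries in WT 506, and 13 their highest in KI 526. Above their own median over the 8 libraries were 1 of 35 members in WT 506 and 29 in KI 526 and KI 528 each, but 15 in KI 513. Reads on the members made up 0.231%, 0.215%, 0.200% and 0.212% of all reads in WT 503, 504, 506 and 527 and 0.223%, 0.249%, 0.230% and 0.233% in KI 513, 526, 528 and 549.

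**Figure D2:**
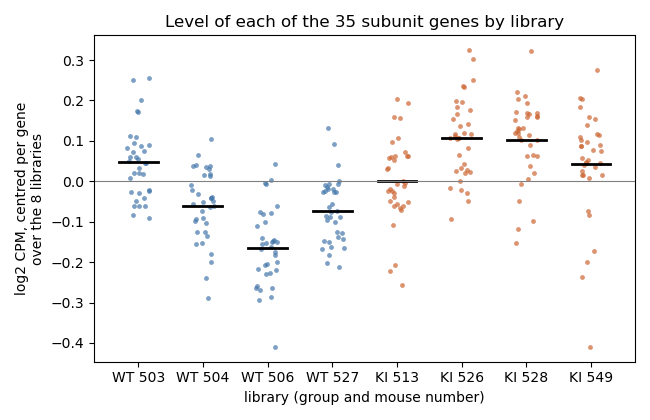
Each point is 1 of the 35 subunit genes in 1 library, as log2 CPM centred on that gene's mean over the 8 libraries, with the black bar at the mean over genes (WT blue, KI orange). The cloud of WT 506 lies lowest, at a mean of −0.16, those of KI 526 and KI 528 highest, at 0.10, and WT 503 lies in the range of the KI libraries.

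Between the genotypes, most members had a slightly higher mean in KI, and none passed the test. Of the 35 members, 33 had a log2 fold change above 0 and 2 below it (Ndufs1 and Ndufv3), where 50.1% of all 17291 tested genes were above 0, or 53.0% of the 9042 genes at least as abundant as the lowest member. The members' median log2 fold change was 0.13 (1.10-fold), beside 0.00 over all genes, with a range of −0.09 to 0.27. edgeR's quasi-likelihood test with Benjamini-Hochberg adjustment called 0 of 35 members, as it called 0 (0.0%) of all genes. At an unadjusted p under 0.05 were 5 members, all higher in KI, beside 3.23% of all genes that were higher at this p and 4.56% that were lower. The members share their libraries, so their 35 directions are not separate observations, and the mean levels above show how much single libraries carry. Leaving out WT 506 lowered the median to 0.10 and the count of members higher at that p from 5 to 0. This count was 1 without KI 526, 2 without WT 527, 3 without WT 504, KI 528 or KI 549, 6 without KI 513 and 9 without WT 503. Without KI 526, 1 member, Ndufs1, was lower in KI at that p (log2 fold change −0.20).

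In 5 members (Ndufa5, Ndufa10, Ndufb10, Ndufc2 and Ndufs3) all KI libraries lay above all WT libraries, a pattern shown by 2.34% of all tested genes, or 3.22% of those at least as abundant as the lowest member. No member showed the reverse, beside 2.6% of all genes. The libraries were precise enough to bound the differences: the 95% interval lay within 1.5-fold either way for 34 of the 35 members and within 2-fold for all 35, the exception to the former being Ndufs5 (−0.17 to 0.60 on the log2 scale). DESeq2, run on the same counts, called 1 member, Ndufa5 (adjusted p = 0.0474, higher in KI), and 1.19% of the 20039 genes given an adjusted p. It gave 11 members an unadjusted p under 0.05, all higher in KI, beside 2.73% of 36872 genes that were higher at this p. Those 36872 include genes with few reads that edgeR's filter left out. Of the 17291 genes tested by edgeR, 1965 had a DESeq2 p under 0.05 in either direction. edgeR's likelihood ratio test and limma-voom called 0 members, and 0.243% and 0.0% of all genes.

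**Figure D3:**
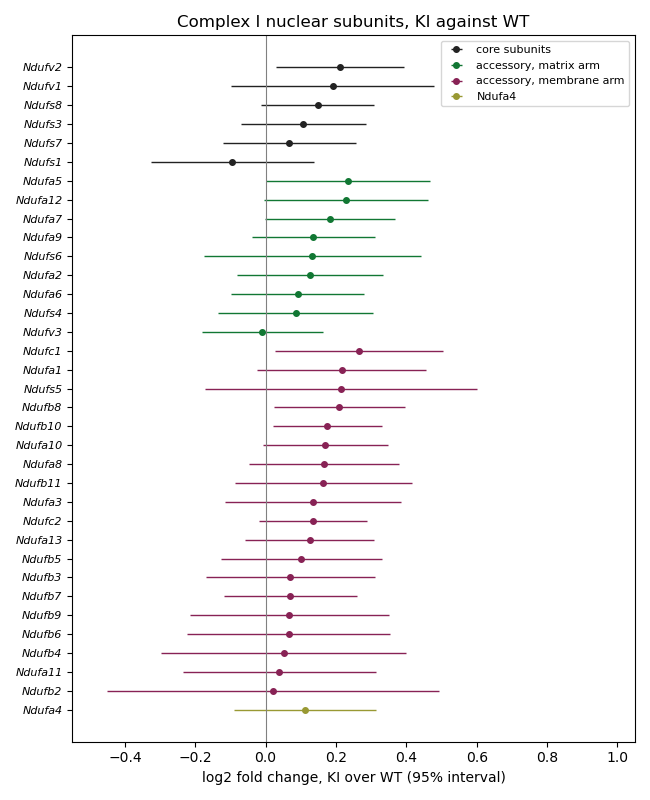
Log2 fold change of KI over WT for each subunit gene with its 95% interval from edgeR's quasi-likelihood fit (4 libraries per group), coloured by the place of the subunit. Of the 35 points, 33 lie to the right of 0, between 0.02 and 0.27, and 5 intervals do not reach 0.

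The core subunits carry the flavin and the iron-sulfur clusters, and 5 of the 6 described had a mean that was higher in KI (median log2 fold change of the 6: 0.13). Ndufv2 (ENSMUSG00000024099, mm10 chromosome 17, 66078638 to 66101559, minus strand), an iron-sulfur subunit beside the NADH site, was read at 133, 123, 105 and 118 CPM in WT 503, 504, 506 and 527 and 144, 142, 139 and 130.0 CPM in KI 513, 526, 528 and 549. WT 503 reached into the KI range, and WT 506 was lowest. KI exceeded WT by a log2 fold change of 0.21 (95% interval 0.03 to 0.39; unadjusted p = 0.0267 and adjusted p = 0.598 by edgeR). Ndufv1, its partner, which binds NADH and the flavin FMN, was read at 58.2, 42.9, 43.6 and 46.4 CPM in the WT libraries and 56.5, 57.6, 59.1 and 45.01 CPM in the KI libraries. WT 503 lay with the KI libraries and KI 549 with the WT libraries (log2 fold change 0.19, SE 0.13, edgeR adjusted p = 0.794).

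Ndufs8 and Ndufs7 hold the iron-sulfur clusters nearest to ubiquinone. Ndufs8 was read at 123, 111, 107 and 111 CPM in the WT libraries and 117, 129, 130.2 and 125 CPM in the KI libraries, and WT 503 lay above KI 513 (log2 fold change 0.15, SE 0.073). Ndufs7 was read at 68.5, 66.0, 60.3 and 69.4 CPM in the WT libraries and 64.7, 66.2, 73.6 and 72.5 CPM in the KI libraries. Its groups overlapped in part (log2 fold change 0.07, SE 0.085). Ndufs3, a core subunit without a cluster, was read at 72.6, 70.5, 61.1 and 69.6 CPM in the WT libraries and 74.1, 74.2, 72.8 and 73.6 CPM in the KI libraries. Its 4 KI libraries lay close together and just above WT 503, the highest WT library (log2 fold change 0.11, SE 0.08, edgeR adjusted p = 0.811). Ndufs1, the largest subunit, which carries electrons from the flavin onward, was read at 83.2, 85.8, 81.8 and 89.9 CPM in the WT libraries and 76.1, 96.6, 76.6 and 69.7 CPM in the KI libraries, where KI 526 was the highest of all libraries and the other 3 KI libraries the lowest (log2 fold change −0.09, SE 0.104, edgeR adjusted p = 0.897).

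Of the 9 accessory subunits of the matrix arm, 8 had a higher mean in KI (median log2 fold change 0.13). Ndufa5 (ENSMUSG00000023089, mm10 chromosome 6, 24518666 to 24528013, minus strand), whose promoter holds the NRF1 form shown above, was read at 22.9, 21.4, 20.7 and 21.2 CPM in WT 503, 504, 506 and 527 and 25.2, 25.4, 24.9 and 26.0 CPM in KI 513, 526, 528 and 549. Every KI library lay above every WT library, and the spread within each group was small. Its mean was 21.6 ± 0.937 CPM in WT and 25.4 ± 0.47 CPM in KI (SD, n = 4 each), with a log2 fold change of 0.23 (95% interval 0.00 to 0.47, edgeR adjusted p = 0.64). DESeq2 called it, as stated above, and the other tools did not, so its call depends on the tool.

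Ndufa7, also of the matrix arm, was read at 72.3, 69.9, 70.6 and 67.3 CPM in the WT libraries and 77.8, 83.7, 85.8 and 70.8 CPM in the KI libraries, and KI 549 lay below WT 503 (log2 fold change 0.18, SE 0.083, edgeR adjusted p = 0.652). Ndufa12, another accessory subunit there, was read at 61.7, 52.2, 49.4 and 51.8 CPM in the WT libraries and 57.0, 71.5, 60.6 and 62.9 CPM in the KI libraries, with WT 503 above KI 513 and KI 528 (log2 fold change 0.23, SE 0.105, edgeR adjusted p = 0.656). Ndufa2, the most abundant of these per length, was read at 70.5, 69.3, 56.5 and 63.3 CPM in the WT libraries and 67.1, 69.0, 75.9 and 71.4 CPM in the KI libraries (log2 fold change 0.13, SE 0.093). The remaining ones were Ndufa9, which binds NADPH (log2 fold change 0.14), Ndufa6 (0.09), Ndufs6, which binds zinc (0.13), Ndufs4, whose loss causes a Leigh-like disease in mice (0.08), and Ndufv3 (−0.01). In each of them the groups overlapped.

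All 19 accessory subunits of the membrane arm had a higher mean in KI, with a median log2 fold change of 0.13 and a range of 0.02 to 0.27. Ndufb10 (ENSMUSG00000040048, mm10 chromosome 17, 24722060 to 24724478, minus strand), which lies on the intermembrane space side, was read at 93.5, 91.1, 86.9 and 95.8 CPM in WT 503, 504, 506 and 527 and 102, 110.1, 102 and 100.3 CPM in KI 513, 526, 528 and 549. The groups did not overlap, and KI 526 was highest (log2 fold change 0.18, SE 0.07, 95% interval 0.02 to 0.33, edgeR adjusted p = 0.6). Ndufb8 (ENSMUSG00000025204, mm10 chromosome 19, 44548572 to 44555440, minus strand), whose protein is often used to gauge assembled complex I on blots, was read at 111, 114, 97.5 and 115 CPM in WT 503, 504, 506 and 527 and 113, 127, 131 and 135 CPM in KI 513, 526, 528 and 549. WT 506 stood below the other 3 WT libraries, and KI 513 fell among them (log2 fold change 0.21, SE 0.084, edgeR adjusted p = 0.604). Ndufc1 (ENSMUSG00000037152, mm10 chromosome 3, 51404677 to 51408988, minus strand), a small membrane subunit, had the largest log2 fold change of the 35, 0.27 (SE 0.107, 95% interval 0.03 to 0.50, edgeR adjusted p = 0.604). It was read at 43.1, 42.6, 36.4 and 38.0 CPM in the WT libraries and 41.7, 48.7, 49.2 and 53.0 CPM in the KI libraries, and KI 513 lay below WT 503 and WT 504.

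Ndufa10, which has the fold of a nucleoside kinase, was read at 83.8, 87.9, 77.5 and 88.1 CPM in the WT libraries and 103, 88.3, 95.9 and 92.3 CPM in the KI libraries. Its lowest KI library, KI 526, only just passed WT 527 and WT 504 (log2 fold change 0.17, SE 0.08, edgeR adjusted p = 0.666). Ndufc2 was read at 97.6, 94.3, 89.1 and 97.9 CPM in the WT libraries and 98.7, 108, 104 and 106 CPM in the KI libraries, again with a narrow gap, between WT 527 and KI 513 (log2 fold change 0.13, SE 0.069, edgeR adjusted p = 0.693). In Ndufa8 the KI libraries spread more widely than the WT libraries: 121, 122, 114 and 121 CPM in the WT libraries and 109, 150.0, 141 and 136 CPM in the KI libraries, with KI 513 the lowest of all 8 (log2 fold change 0.17, SE 0.096). Ndufa1, an X-linked gene whose mutation causes complex I deficiency in humans, averaged 33.3 ± 3.40 CPM in WT and 38.6 ± 2.27 CPM in KI (log2 fold change 0.22, SE 0.108), and the other X-linked member, Ndufb11, 60.8 ± 8.97 CPM in WT and 68.1 ± 2.91 CPM in KI (log2 fold change 0.16, SE 0.113). Ndufa13, known also as a regulator of cell death, averaged 119.9 ± 9.93 CPM in WT and 131 ± 8.67 CPM in KI (log2 fold change 0.13, SE 0.082). The rarest members gave the least precise values: Ndufb2 was read at 10.9, 8.81, 8.96 and 10.3 CPM in the WT libraries and 8.10, 12.1, 12.1 and 7.29 CPM in the KI libraries (log2 fold change 0.02, SE 0.212). Its highest and its lowest values were both in KI libraries. Ndufb4 was read at 9.25, 9.84, 9.08 and 9.53 CPM in the WT libraries and 9.93, 10.3, 10.5 and 8.34 CPM in the KI libraries (log2 fold change 0.05, SE 0.157), with KI 549 below every WT library. Ndufs5 averaged 7.62 ± 0.872 CPM in WT and 8.84 ± 0.728 CPM in KI (log2 fold change 0.21, SE 0.174). Ndufb5 was read at 45.3, 46.8, 46.1 and 40.7 CPM in the WT libraries and 48.2, 48.9, 41.5 and 53.2 CPM in the KI libraries (log2 fold change 0.10, SE 0.103). The log2 fold changes of the other membrane arm subunits were 0.14 for Ndufa3, 0.07 for Ndufb3, 0.07 for Ndufb7, 0.07 for Ndufb9, 0.07 for Ndufb6 and 0.04 for Ndufa11, all with overlapping groups.

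**Figure D4:**
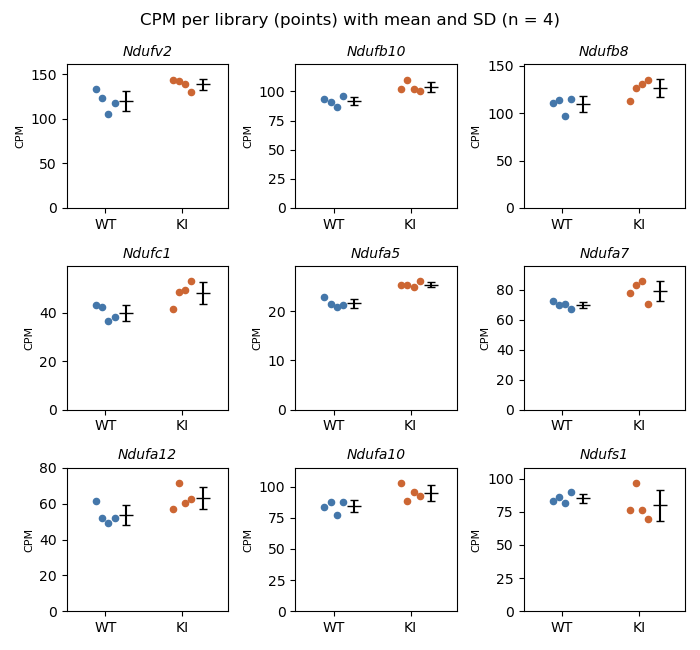
CPM in each library (points, in the order of mouse numbers within WT and KI) for the 8 members with the smallest unadjusted p and for Ndufs1, with the mean and SD of 4 libraries; the axes start at 0. Ndufa5, Ndufb10 and Ndufa10 show no overlap of the groups, and in Ndufs1 the mean is lower in KI (79.8 CPM against 85.2).

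The member Ndufa4 carries a complex I name but has been reassigned to complex IV, cytochrome c oxidase. It was read at 68.4, 58.0, 55.2 and 62.7 CPM in the WT libraries and 63.4, 68.5, 68.3 and 63.7 CPM in the KI libraries (log2 fold change 0.11, SE 0.091, edgeR adjusted p = 0.84). Subunits and relatives outside the rule were Ndufab1, the mitochondrial acyl carrier protein and a true subunit (42.1 ± 2.80 CPM in WT and 46.3 ± 1.79 CPM in KI, log2 fold change 0.14, SE 0.091), Ndufb1-ps, annotated as a non-coding gene (11.9 ± 1.30 CPM in WT and 14.5 ± 2.06 CPM in KI, log2 fold change 0.29, SE 0.164), and Ndufa4l2, a hypoxia-induced relative of Ndufa4 with 19 reads over the 8 libraries. The 7 mitochondrially encoded core subunits, the mt-Nd genes, held 0 reads in every library, as did all 37 mitochondrial genes of the table. Their expression was therefore not analysed here, nor its balance with the nuclear subunits.

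Some counts may be split between a gene and its copies. Pseudogenes with at least 95% identity over 100 bases were found for 7 members, and in 3 of them the pseudogene held many reads: Gm15920 held 10704 reads beside 23357 of Ndufa12, Gm12251 7329 beside 28319 of Ndufs3, and BC002163 3820 beside 3289 of Ndufs5. The pseudogenes' log2 fold changes were 0.26 for Gm15920, 0.16 for Gm12251 and 0.14 for BC002163. With the reads of each pseudogene added to its member, the log2 fold changes were 0.24 for Ndufa12 (unadjusted p = 0.0365, edgeR adjusted p = 0.609), 0.12 for Ndufs3 and 0.17 for Ndufs5. Reads were counted without strand, and 14 members share exon bases with another gene, up to 39.0% of the bases in Ndufb6 (with Smim27) and 30.0% in Ndufa13 (with Tssk6).

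Neighbouring parts of respiration were described by lists. The list of complexes II to V holds their subunits and also Cycs, the mobile carrier cytochrome c (log2 fold change 0.10), and Cox7a2l, a supercomplex factor (0.14). It had 35 of 39 tested genes above 0 (median log2 fold change 0.10), beside 33 of 35 (0.13) for complex I. The 3 with the smallest p were Uqcrc1, a core protein of complex III (457 ± 9.30 CPM in WT and 520.4 ± 18.2 CPM in KI, log2 fold change 0.19, SE 0.051, edgeR adjusted p = 0.507), Sdhd, a membrane anchor of complex II (132 ± 8.22 CPM in WT and 154 ± 9.15 CPM in KI, log2 fold change 0.22, SE 0.073), and Atp5k, of the ATP synthase (14.6 ± 1.18 CPM in WT and 18.9 ± 2.31 CPM in KI, log2 fold change 0.37, SE 0.142). In all 3, which were picked by their p, the KI libraries lay above the WT libraries, as in 2.34% of all tested genes. DESeq2 called Uqcrc1 (adjusted p = 0.00644), beside 1.19% of the genes it gave an adjusted p. The 19 tested complex I assembly factors had 13 above 0 and a median of 0.03. At an unadjusted p under 0.05, 0 of the 19 were lower in KI and, beside 3.23% of all tested genes, 2 were higher. These were Ndufaf1 (28.4, 34.5, 32.3 and 29.6 CPM in the WT libraries and 40.5, 38.2, 39.1 and 46.6 CPM in the KI libraries, log2 fold change 0.40, SE 0.111, edgeR adjusted p = 0.507) and Tmem126b (94.0, 85.0, 89.0 and 79.8 CPM in the WT libraries and 101, 112, 94.5 and 96.8 CPM in the KI libraries, log2 fold change 0.22, SE 0.084, edgeR adjusted p = 0.598). In both, which were also picked by their p, all KI libraries lay above all WT libraries, and DESeq2 called Ndufaf1 (adjusted p = 0.0195). The proteins of these genes work together in the complex that assembles part of the membrane arm, with those of Ecsit (log2 fold change 0.10) and Acad9 (0.01). Next by p was Ndufaf4 (31.1 ± 5.08 CPM in WT and 38.0 ± 5.48 CPM in KI, log2 fold change 0.29, SE 0.15).

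Enzymes and regulators around NADH supply, from the citric acid cycle and linked reactions, were mixed. Of 22 genes, 13 were above 0 (median 0.02). At an unadjusted p under 0.05, 2 of the 22 were higher and 2 lower in KI, beside 3.23% and 4.56% of all tested genes. The 22 genes include Pdk1 (log2 fold change −0.07), Pdk2 (−0.26) and Pdk3 (0.02), kinases that inhibit pyruvate dehydrogenase, and Nnt (0.20), which consumes NADH. Ogdh, of the oxoglutarate dehydrogenase complex, averaged 117 ± 20.7 CPM in WT and 87.8 ± 14.8 CPM in KI (log2 fold change −0.41, SE 0.15, edgeR adjusted p = 0.585), Got2, mitochondrial aspartate aminotransferase, 29.1 ± 2.77 CPM in WT and 23.2 ± 2.14 CPM in KI (log2 fold change −0.33, SE 0.123), and Sucla2, of succinate-CoA ligase, 147 ± 8.80 CPM in WT and 173 ± 22.9 CPM in KI (log2 fold change 0.23, SE 0.098). In all 3 the groups overlapped. Of 15 tested regulators of mitochondrial biogenesis, 9 were above 0 (median 0.05). Tfam, which packages mitochondrial DNA, was read at 37.5, 28.4, 32.6 and 27.9 CPM in the WT libraries and 40.3, 39.4, 43.6 and 41.8 CPM in the KI libraries, without overlap (log2 fold change 0.38, SE 0.118, edgeR adjusted p = 0.533). Of all tested genes, 2.34% lay higher in KI without overlap. Polrmt, the mitochondrial RNA polymerase, averaged 6.74 ± 2.40 CPM in WT and 3.85 ± 1.59 CPM in KI (log2 fold change −0.81, SE 0.354), and Nrf1, the factor whose motif form is shown above, 69.8 ± 13.3 CPM in WT and 57.5 ± 5.12 CPM in KI (log2 fold change −0.28, SE 0.134). The 7 members with the NRF1 form had a median log2 fold change of 0.133 and the 25 without it 0.135. For the YY1 form both medians were 0.135. For the ETS core the median was 0.0883 in the 4 members with it and 0.136 in the 28 without. These are descriptions, with no test. edgeR's quasi-likelihood test called 0 genes of each of these lists. In a bulk library, fewer cells of a type and less RNA per cell cannot be told apart.

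**Figure D5:**
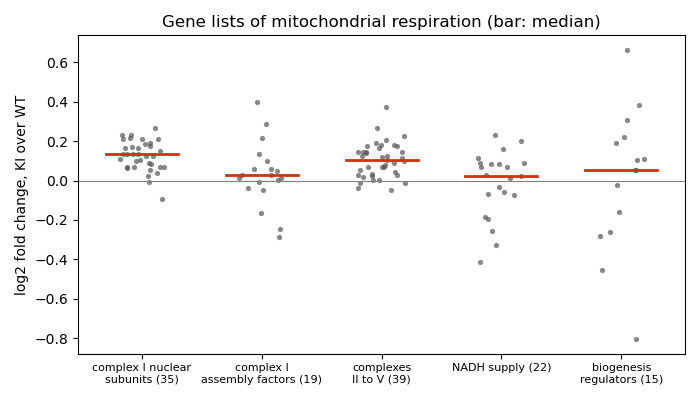
Log2 fold change of KI over WT for each tested gene (points) of the complex I subunits and 4 other lists of respiration, with the median as a red bar. The complex I subunits lie between −0.09 and 0.27 around a median of 0.13, and the genes listed for complexes II to V around 0.10. The assembly factors (−0.29 to 0.40) and biogenesis regulators (−0.81 to 0.66) reach farther both below and above 0 than the complex I subunits. Genes of NADH supply (−0.41 to 0.23) reach farther below 0. These lists have medians of 0.02 to 0.05.

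Libraries held 45167483 to 54049801 reads on genes. Microglial markers were abundant in all of them, with a summed level of 33796 to 38616 CPM in WT and 32411 to 36611 CPM in KI over 10 genes. Of these 10, 3 were lower and 1 higher in KI at an unadjusted p under 0.05, beside 4.56% and 3.23% of all tested genes. Erythroid markers, hemoglobin genes among them, had 3 of 5 lower in KI at that p, beside the same 4.56%. P2rx4 was read at 792 ± 43.5 CPM in WT and 858 ± 62.6 CPM in KI (log2 fold change 0.11, edgeR adjusted p = 0.735), and counts over whole genes do not check the knock-in. Of the summed markers of 9 other cell types, none passed a 2-sided exact permutation test, where the smallest possible p is 0.0286. Those with the most reads were astrocyte (315 to 381 CPM in WT and 312 to 373 CPM in KI, of which Slc1a3 alone held 330.3 and 339.8 CPM on average and each of the other 5 markers under 6 CPM), erythroid (159 to 522 CPM in WT and 96.1 to 305 CPM in KI) and oligodendrocyte markers (163 to 283 CPM in WT and 148 to 272 CPM in KI). The slope of a library's levels on the GC content of genes was 0.042 ± 0.053 over the WT and −0.042 ± 0.064 over the KI libraries (log2 units for 10 points of GC, SD, n = 4, exact permutation p = 0.0571, adjusted over 13 library measures 0.495). The slope and the members' mean level had opposite signs in WT 506, WT 527, KI 526 and KI 528, and the same sign in WT 503, WT 504 and KI 549, while the mean of KI 513 lay at 0.00. With the trends on GC content and exon length removed, 33 of 35 members were above 0 with a median of 0.13. The median was 0.17 with the GC trend alone removed and 0.11 with the length trend alone removed. The part of these measures in the members' values was not tested further.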

How the data were processed

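RNA from sorted spinal cord microglia of 8 mice (4 WT, 4 KI, 1 library each) was prepared with the NEBNext Low Input kit, per the labels' protocols. Per the file headers, the authors counted reads over exons per gene with featureCounts 2.0.3, without strand, and deposited the raw counts with each gene's exon length. STAR 2.7.5c, SAMtools 1.9 and mm10 are named in the submitters' processing notes. The deposited FPKM values are the authors' counts scaled to library size and to an exon length that, from the values, was shortened by 186 to 189 bases, which raises short genes most. The tables also held 8 columns that matched no sample of the labels, and they were not used. Groups follow the labels, which do not say whether the mice were littermates or handled together.

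Symbols were taken from GENCODE M21. Counts were scaled by TMM, filtered with filterByExpr (at least 10 reads), and tested by edgeR's quasi-likelihood test (edgeR 4.0.16, R 4.3.3, robust) over 17291 genes, with Benjamini-Hochberg adjustment and a threshold of 0.05. The SE is the size of the log2 fold change over the root of F. Single library measures were tested by 2-sided exact permutation. The procedure was tested on simulated data whose planted changes were larger than the members' fold changes. That test does not cover changes of the members' size. The alternatives were DESeq2 1.42.0, limma-voom and limma 3.58.1 on log2(FPKM + 1), the likelihood ratio test, other scaling, no filter, removal of GC and length trends, and leaving out each library. Libraries held at least 45167483 reads. All 35 members are named, with values in every library for the core subunits, the 8 smallest p, the 3 highest and 3 lowest FPKM, Ndufa4 and any member called. From each other list the 3 genes of smallest p are named; Ecsit, Acad9 and the other members given by library were chosen after their values were seen. Members and lists were chosen with earlier results of these data known, and nothing here is independent of those. Of the genes that match the rule, 1 is not reported here. The mitochondrial genes, at 0 reads, were left out of all tests.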

Additional observations from a re-analysis of the deposited data

Results flagged for a closer look

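Of the 70 groups of 4 libraries (35 members in WT and in KI), 2 held a library whose gap to its nearest neighbour exceeded Dixon's 95% critical value for the ratio of gap to range in 4 libraries. Chance flags about 1 in 20 groups. Ndufa8 was read at 114.4 CPM in WT 506, below the 120.6 to 121.7 CPM of the other WT libraries (gap over range 0.844). Ndufs6, the zinc-binding subunit, was read at 30.71 CPM in WT 503, above the 22.19 to 23.23 CPM of the other WT libraries (0.878). WT 506 and WT 503 were also the WT libraries with the lowest and the highest mean level of the members.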

How the results depend on the processing

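The settings tried gave 31 to 34 of 35 members above 0, and 31 of 35 members kept their sign in every setting. The count of members called was 0 except by DESeq2 (1). Members higher in KI at an unadjusted p under 0.05 numbered 5, and 3 without the filter on low counts, 3 by the likelihood ratio test, 11 by DESeq2, 10 with the GC trend removed, and 0 (without WT 506) to 9 (without WT 503) when 1 library was left out. Without KI 526, 1 member was lower at that p. The median moved between 0.10 and 0.17 over the same omissions. Over all genes, 0 were called, against 42 by the likelihood ratio test, 238 by DESeq2 and 1 by limma on log2(FPKM + 1). With the reads of near-identical pseudogenes added, an alternative chosen after seeing the data, 6 members were higher at that p.

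Log2 fold changes near 0 changed sign. For Ndufb2 it was −0.0184 by limma-voom, −0.006 on log2(FPKM + 1), −0.0233 with the GC trend removed, and −0.0952 to 0.1436 with 1 library left out. With GC and length trends removed Ndufb3 was at −0.0252. Ndufv3 was at 0.0321 with the GC trend removed, 0.0027 with the length trend, 0.015 with both, and −0.0304 to 0.0187 with 1 library left out. Ndufa11 ranged from −0.022 to 0.1093 over the omissions. The cause was not tested. No paired analysis was possible because the labels link no WT mouse to a KI mouse. The members with the fewest reads over the 8 libraries were Ndufs5 (3289), Ndufb4 (3813) and Ndufb2 (3920). Their SEs were the largest of the 35 (0.174, 0.157 and 0.212). The part of depth in this was not tested.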
